A study of Homo sapiens with 6 samples.

Results

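The genes described here are 59 collagens and other genes of the extracellular matrix, taken from a list of symbols that runs from chains of the collagens and laminins to the enzymes that modify, cross-link and cut them. All 59 had at least 1 probe on the array, out of 18852 genes named there, and 26 had more than 1. A gene stands here by its detected probe of highest mean raw signal, or by its brightest probe where none passed the filter. Total RNA came from HEK293, an established human embryonic kidney line with some neuronal gene expression. The 3 control samples were cultured for 3 days in complete medium alone. The 3 treated samples had the same days in medium to which a retinoid and a cyclic nucleotide had been added together, so the agents cannot be told apart here. The retinoid was all-trans retinoic acid (tRA). The nucleotide was N6,2'-O-dibutyryl-cAMP (cAMP), a form of cAMP that enters cells, and the labels give a dose for neither. Every sample was hybridized to 1 bead array, all on 1 chip, where each group has its own positions, and an effect of position cannot be told apart from one of treatment. Nothing in the labels states that a group's samples came from separate cultures; the p-values then reflect only how these samples vary, possibly for technical reasons. All values are of RNA from 1 line grown as bulk culture, where fewer cells of a type and less RNA per cell cannot be told apart.

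The extracellular matrix is the protein scaffold that cells secrete around themselves. Fibrillar collagens assemble from 3 chains into rope-like fibrils, whereas type IV collagen, laminins, nidogens and perlecan build the sheet-like basement membrane under epithelia and around developing kidney tubules. Before secretion, collagen chains are hydroxylated by the P4H and PLOD enzymes and folded with the chaperone SERPINH1, and outside the cell they are cross-linked by lysyl oxidases and cut by matrix metalloproteases, which TIMP proteins inhibit. Retinoic acid and cAMP are both used to push cultured cells towards differentiation.

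Each array detected 14792 to 16103 of 48803 probes (detection p under 0.01, that is, above nearly all negative control probes). Levels are normalized log2 intensities after background correction, on which 1 unit is a doubling, and differences are treated minus control. Normalized arrays correlated at 0.986 to 0.99 within groups and at 0.977 to 0.981 between them. Of 8 genes reported earlier in HEK293, VIM, KRT8, KRT18, NEFL and EYA1 were detected on all 6 arrays and NEFM, INA and PAX2 on 0. EYA1 fell 2.07-fold with treatment (limma, adjusted p = 0.00857). VIM, the mesenchymal filament vimentin, was 1.42-fold lower without passing the threshold (limma, adjusted p = 0.0564, and 0.00183 to 0.187 over the alternatives). With its dimmer probe VIM was 1.88-fold lower and passed (limma, adjusted p = 0.00606). It also passed with the mean of its probes, without background correction, with a robust fit on a variance trend and in the deposited normalized table. The summed intensity of the 5, to which VIM contributed most, was 46504 to 52517 on control and 35374 to 38922 on treated arrays, and its part in the matrix values was not tested. The number of arrays, 3 in each group, limits the precision of every value.

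Of the 59 matrix genes, 40 were measured well enough to be tested, meaning detected on all 3 arrays of at least 1 group, 5 were detected on 1 or 2 arrays in all, and 14 on 0. Between 40 and 43 of the 59 were detected on a control array and between 33 and 38 on a treated array. With treatment 10 fell and 0 rose (limma, Benjamini-Hochberg adjusted p under 0.05 over 9944 genes), where 1.45% of all tested genes fell and 1.09% rose. The members were chosen with earlier results of these data known, so the shares set beside all tested genes in this paragraph are a description. At an unadjusted p under 0.05, 17 were lower and 1 was higher, against 7.36% and 6.87% of all tested genes. Of the 40 differences 32 were below 0, as were 49.6% over all tested genes, and their median was -0.26 beside 0.0018. These totals include 7 genes that passed the filter through the control arrays alone, as did 3.49% of all tested genes. The filter itself picks such genes for being dimmer with treatment, so the 6 of them that fell, beside 15% of all 347, are given as a description. None of the 40 passed through the treated arrays alone. Of the 33 matrix genes detected on all 6 arrays, 4 fell (12.1%), COL5A1, COL3A1, COL5A2 and OLFML2A, and 0 rose, where 0.973% of all genes so detected fell and 0.878% rose. Their median difference was -0.20 beside 0.0056. Over all 40, control and treated arrays did not overlap in 18 members that were lower and 1 that was higher with treatment, against 9.7% and 9.21% of all tested genes. Of the 18 lower ones 12 were detected on all 6 arrays, and the rest passed the filter through the control arrays alone.

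**Figure D1:**
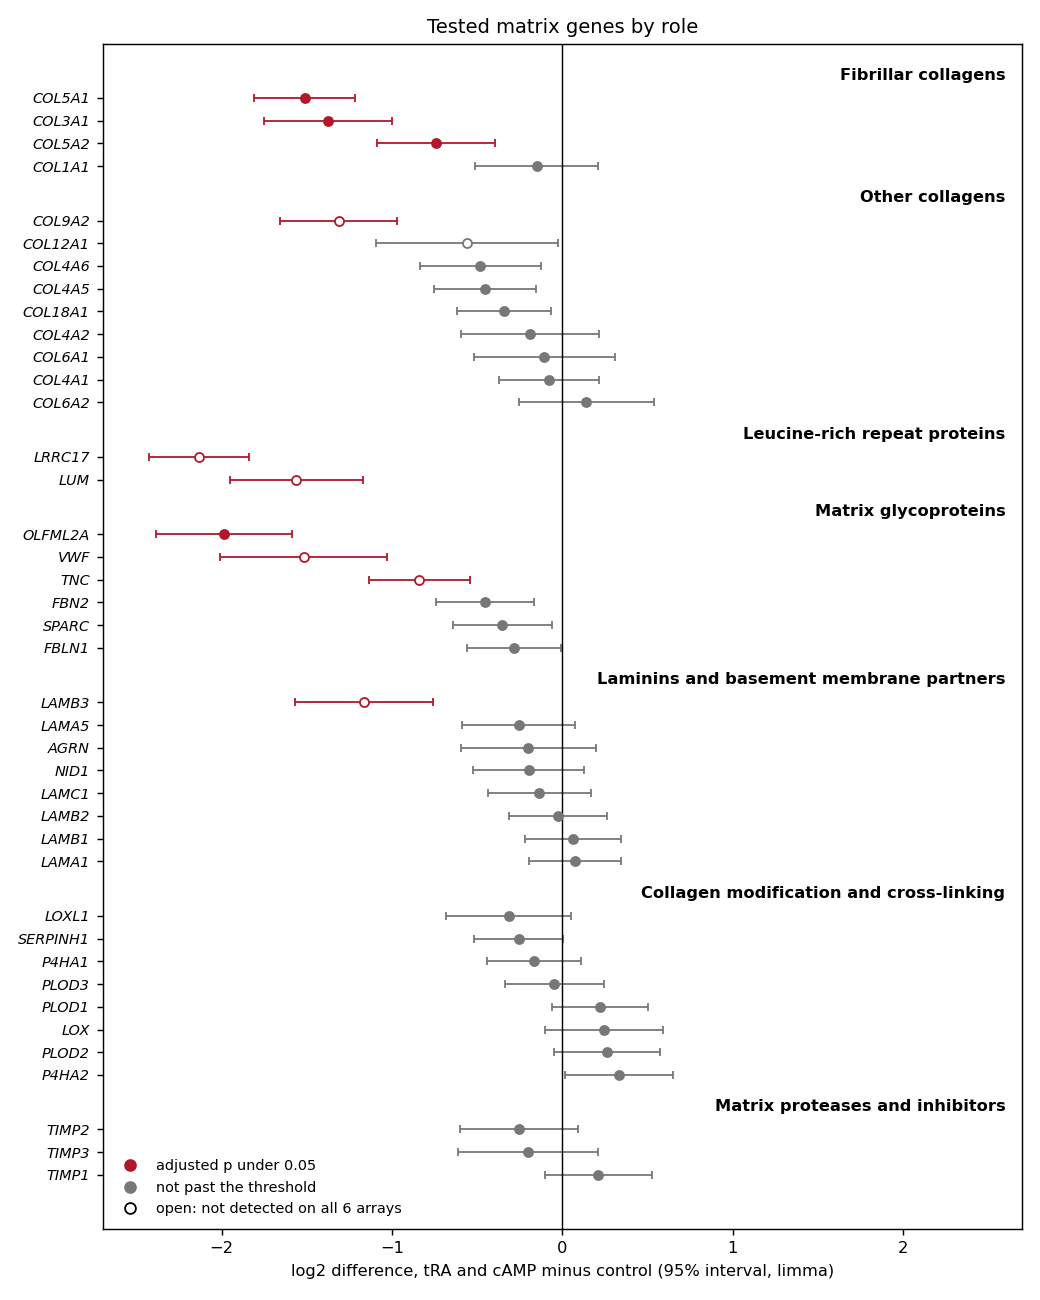
Differences of the 40 tested matrix genes, grouped by role; the x axis is the log2 difference (tRA and cAMP minus control), points are limma estimates and bars their 95% intervals. Red marks the 10 genes past the threshold, all below 0, and open points mark the 7 genes not detected on all 6 arrays; the enzymes that modify and cross-link collagen lie on both sides of 0.

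Among the fibrillar collagens, 3 of 4 tested members fell and 0 rose. These were both measured chains of type V collagen, which regulates the width of type I fibrils, and the chain of type III collagen, found with type I in distensible tissues. COL5A1 read 12.73, 13.08 and 13.05 on the control arrays and 11.34, 11.48 and 11.50 on the treated arrays. The 3 treated values lay close together and more than 1 unit below the lowest control. This was a 2.85-fold decrease (difference -1.51, standard error 0.13; limma, adjusted p = 0.000187), carried by raw signals of 8024 to 8775 in controls and 2568 to 3288 with treatment. COL3A1 read 12.30, 12.20 and 12.21 in controls and 11.20, 10.87 and 10.50 with treatment, 2.59-fold lower (difference -1.37, standard error 0.17; limma, adjusted p = 0.00153). Its control arrays were nearly level (SD 0.055), whereas the treated ones spread (SD 0.35, n = 3) without reaching them. COL5A2 read 11.90, 11.84 and 11.56 in controls and 11.29, 10.78 and 11.002 with treatment, 1.67-fold lower (limma, adjusted p = 0.0343). The groups lay apart by less than the spread within them, and the call was lost without control replicate 1 (adjusted p = 0.118) or 2 (0.122), without treated replicate 2 (0.13) or 3 (0.105), without normalization (0.0509), with no filter (0.126) and with a looser filter of 0.05 (0.0678).

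The fourth tested fibrillar gene, COL1A1, which encodes the main chain of type I collagen, differed by -0.15 (95% interval -0.51 to 0.21; limma, adjusted p = 0.76) from a control level of 8.82 ± 0.32 (SD, n = 3). Its control arrays, 8.83, 8.50 and 9.13, enclosed all 3 treated ones, 8.56, 8.67 and 8.78. Its partner chain COL1A2 and the cartilage fibril chains COL2A1 and COL11A1 were detected on 0 arrays, with normalized values of 5.46 to 6.56 that are not above background.

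Of the other collagens, 9 of 13 were tested, 1 fell and 0 rose. The 1 that fell passed the filter through the control arrays alone. COL9A2, a chain of a fibril-associated collagen of cartilage, read 7.91, 7.92 and 8.29 in controls, and its treated arrays, 6.79, 6.49 and 6.90, were all below detection. The fitted difference was -1.31 (limma, adjusted p = 0.00116), and the p-value belongs to that difference. The size of the decrease is therefore given as a bound, at least 1.38-fold, or at least 1.18-fold with the background left in. Such a bound divides the control mean by the mean of the treated arrays, after each of these was raised, where lower, to the dimmest signal that counts as detected on it. COL9A3, another chain of the same collagen, was not detected on any array. The other 8 tested collagens did not pass the threshold and ranged from -0.56 to 0.14. At an unadjusted p under 0.05 (limma) 4 of them were lower, against 7.36% of all tested genes. Of these 4, COL12A1 passed the filter through the control arrays alone, so this count is a description.

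The basement membrane chains COL4A5 and COL4A6, which lie next to each other on the X chromosome, differed by almost the same amount. COL4A5 read 11.86, 11.97 and 12.18 in controls and 11.73, 11.43 and 11.48 with treatment (difference -0.45, standard error 0.14; limma, adjusted p = 0.137), and its other tested probe differed by -0.31. COL4A6 read 9.99, 9.53 and 10.10 in controls and 9.35, 9.31 and 9.52 with treatment (difference -0.48, standard error 0.16; limma, adjusted p = 0.181). Neither passed the threshold, although the treated arrays lay below all controls in both; with a robust fit on a variance trend COL4A5 did pass it (adjusted p = 0.0414). COL18A1, whose C-terminal fragment is endostatin, differed by -0.34 without overlap (limma, adjusted p = 0.23). COL4A1 and COL4A2, the chains of the common type IV collagen, differed by -0.08 and -0.19, with intervals of -0.37 to 0.22 and -0.60 to 0.21. A single treated array, replicate 3 at 8.92, gave COL4A2 its lower mean; the other 2 treated arrays, 9.61 and 9.59, lay within the control range.

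The microfibril chains COL6A1 and COL6A2 differed by -0.11 and 0.14 (limma, adjusted p = 0.861 and 0.795). The direction of COL6A2 depends on the probe, since its other probe detected on all arrays differed by -0.24. Another COL6A2 probe, detected on 2 treated arrays alone and not tested, differed by 0.70. COL12A1, a fibril-associated collagen, read 7.81, 7.64 and 7.80 in controls and 7.80, 7.12 and 6.64 with treatment, where only replicate 1 was detected (difference -0.56, standard error 0.24; limma, adjusted p = 0.324). Its size rested on single treated arrays: it was -0.86 without replicate 1 (adjusted p = 0.0439) and -0.29 without replicate 3 (0.595). COL14A1 was detected on 1 control and 1 treated array and not tested, and COL6A3 and the transmembrane COL13A1 were detected on 0 arrays.

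Promoter sequence was at hand for 43 members, 6 of them among the 10 that fell, and 250 bases upstream of the most upstream RefSeq start (build GRCh38.p14) were searched on both strands for the following motifs. The retinoic acid receptor half-site AGGTCA was found in 0 of the 43 windows, against 8.02% of 8234 windows of tested genes and 12.2% of all 27305 genes. The CRE half-site TGACG, known from CREB binding, was in 18.6% of member windows and 30.7% of tested genes (21.6% of all), and among the members that fell only in LAMB3. The full site TGACGTCA, which holds the half-site on both strands, was in the window of FN1 alone, or 2.33% of members against 3.18% of tested genes (1.75% of all). The SP1 box GGGCGG was in 69.8% of member windows and 68.2% of tested genes (42.2% of all). CCAAT was in 37.2% against 36.1% (33.0% of all), TATAAA in 9.3% against 5.16% (11.2% of all) and the AP-1 site TGANTCA in 2.33% against 3.55% (6.57% of all). The 43 member windows include genes that were not tested, so they and the windows of tested genes are unlike sets. Among these untested genes are FN1, COL13A1 and POSTN, the last 2 with TATAAA matches and POSTN with the AP-1 site. The windows of COL5A1, OLFML2A and LRRC17 are shown because these genes fell, and the stretch between the starts of COL4A1 and COL4A2 because the 2 genes are read from it in opposite directions and did not pass the threshold. Capitals mark matches to any of the motifs, which are descriptions of letters and not known binding sites; for COL3A1, COL5A2, LUM and VWF no window is shown.
COL5A1, chr9:134641553-134641802, plus strand: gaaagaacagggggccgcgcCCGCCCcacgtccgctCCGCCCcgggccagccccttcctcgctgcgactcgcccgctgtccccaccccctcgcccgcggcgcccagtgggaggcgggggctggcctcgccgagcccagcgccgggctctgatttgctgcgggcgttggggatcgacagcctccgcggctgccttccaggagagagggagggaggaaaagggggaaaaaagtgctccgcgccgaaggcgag
OLFML2A, chr9:124776883-124777132, plus strand: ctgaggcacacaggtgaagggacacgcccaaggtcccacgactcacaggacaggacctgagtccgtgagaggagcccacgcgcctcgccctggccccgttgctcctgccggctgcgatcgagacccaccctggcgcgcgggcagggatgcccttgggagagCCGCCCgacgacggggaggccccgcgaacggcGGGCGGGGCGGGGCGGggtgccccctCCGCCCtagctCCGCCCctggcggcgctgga
LRRC17, chr7:102912750-102912999, plus strand: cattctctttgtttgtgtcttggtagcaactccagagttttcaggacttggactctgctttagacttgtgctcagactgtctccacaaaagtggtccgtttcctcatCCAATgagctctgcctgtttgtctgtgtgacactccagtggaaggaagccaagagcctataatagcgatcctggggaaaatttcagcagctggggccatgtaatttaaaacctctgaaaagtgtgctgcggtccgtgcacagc
COL4A1 and COL4A2, chr13:110307158-110307283, plus strand: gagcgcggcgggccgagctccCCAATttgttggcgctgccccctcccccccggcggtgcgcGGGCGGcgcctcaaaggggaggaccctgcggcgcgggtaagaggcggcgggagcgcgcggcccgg
The window of OLFML2A holds 6 SP1 box matches, some overlapping, and that of COL5A1 holds 2. The window of LRRC17 holds no SP1 box and 1 CCAAT, and the COL4A1 and COL4A2 stretch of 126 bases holds 1 of each.

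The leucine-rich repeat proteins held 2 tested members, and both fell. Both passed the filter through the control arrays alone, so this count is a description. LRRC17, a secreted protein that in mice restrains the formation of osteoclasts, read 9.67, 9.49 and 9.56 in controls and 7.35, 7.65 and 7.32 with treatment, where only replicate 2 was detected. The groups lay nearly 2 units apart (difference -2.13, standard error 0.13; limma, adjusted p = 1.51e-05), a fitted 4.38-fold decrease that was 2.50-fold with the background left in. A second LRRC17 probe went from 8.28 ± 0.26 to 5.78 ± 0.13 (SD, n = 3), detected on 3 control and 0 treated arrays, which gives a bound of at least 1.64-fold lower, or 1.30-fold with the background left in, and the last of its probes was detected on 0 arrays. LUM, lumican, a proteoglycan that spaces collagen fibrils, read 9.12, 8.68 and 9.19 in controls and 7.60, 7.57 and 7.13 with treatment, where again only replicate 2 was detected. Its fitted decrease was 2.95-fold (difference -1.56, standard error 0.17, limma, adjusted p = 0.000896) and 1.86-fold with the background left in. The other LUM probe was detected on 0 arrays.

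The related fibril-binding proteoglycans were dim. DCN, decorin, was detected on 0 arrays with all 4 of its probes dim. BGN, biglycan, was detected on control replicate 2 alone and was not tested. With a looser filter of detection p under 0.05 it was tested and called (7.16, 7.47 and 7.02 in controls, 6.37, 6.44 and 5.86 with treatment). No treated array detected BGN at a detection p under 0.01, so that call is a description.

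**Figure D2:**
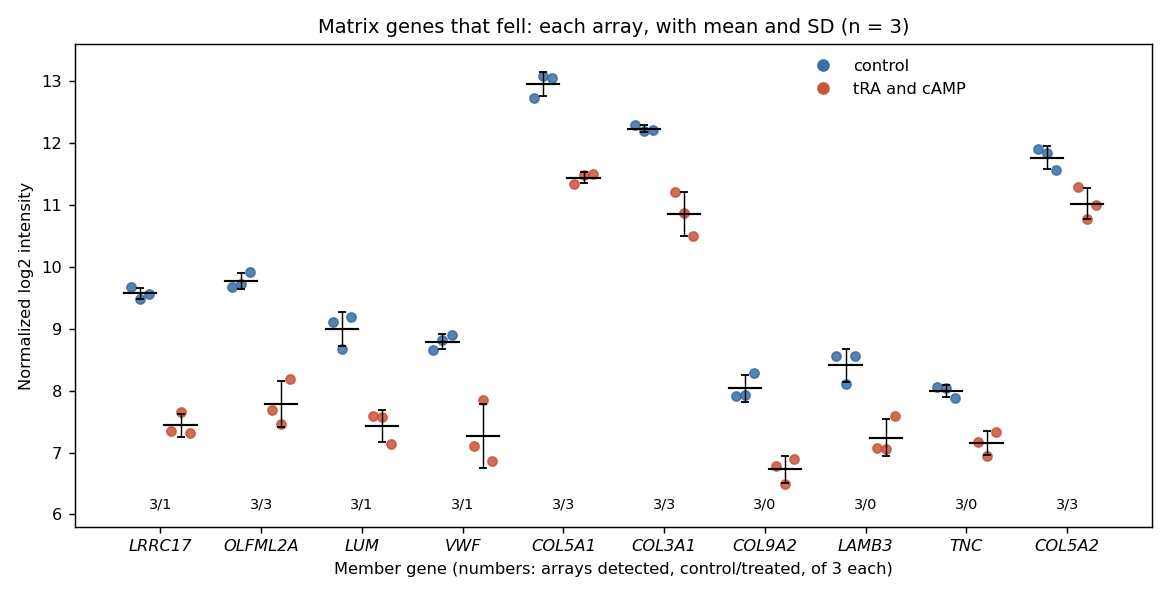
Normalized log2 intensity (y axis) of the 10 matrix genes that fell, ordered by difference; points are single arrays, black bars the mean and SD of 3 arrays, blue control and red tRA and cAMP, and the numbers give how many of 3 arrays detected the gene in each group. No gene's groups overlap, and LRRC17, LUM and VWF were detected on 1 treated array each and COL9A2, LAMB3 and TNC on 0.

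Of 10 matrix glycoproteins, 6 were tested, 3 fell and 0 rose. Among those that fell, VWF and TNC passed the filter through the control arrays alone, so this count is a description. OLFML2A, a secreted olfactomedin-domain protein, read 9.67, 9.73 and 9.91 in controls and 7.69, 7.46 and 8.19 with treatment. All 6 arrays detected it, with raw signals of 998 to 1193 in controls and 389 to 422 with treatment. The decrease was 3.97-fold (difference -1.99, standard error 0.18; limma, adjusted p = 0.000228) and 2.48-fold with the background left in. VWF, von Willebrand factor, the blood-clotting protein that endothelial cells store, read 8.66, 8.82 and 8.90 in controls and 7.10, 7.85 and 6.86 with treatment, with detection on treated replicate 2 alone. Its treated arrays were the most scattered of the genes that fell (SD 0.52, n = 3), all below the controls (difference -1.52, standard error 0.22; limma, adjusted p = 0.00449). The fitted decrease was 2.87-fold, or 1.76-fold with the background left in. VWF has a near-identical partial pseudogene, and the probe may not separate them. TNC, tenascin-C, an adhesion-modulating glycoprotein of embryonic matrix, read 8.06, 8.04 and 7.87 in controls and was not detected with treatment (7.18, 6.95 and 7.33). The fitted difference was -0.84 (limma, adjusted p = 0.00851). As a bound, TNC was at least 1.34-fold lower, or at least 1.15-fold with the background left in. Its other probe was detected on 0 arrays. The call was lost with the background left in (-0.39, adjusted p = 0.0594), with a robust fit on a variance trend (0.0542) and in the table the authors normalized (0.0522).

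The other 3 tested glycoproteins were lower on every treated array than on any control without passing the threshold. Groups lay apart in this direction in 9.7% of all tested genes, called or not. FBN2, fibrillin-2 of elastic microfibrils, read 13.07, 13.07 and 13.32 in controls and 12.83, 12.71 and 12.56 with treatment (difference -0.46, standard error 0.13; limma, adjusted p = 0.117). It passed with the background left in (-0.44, adjusted p = 0.0466) and with the robust fit (0.0253). FBLN1, fibulin-1, went from 13.51 ± 0.09 to 13.22 ± 0.14 (SD, n = 3; difference -0.29; limma, adjusted p = 0.333), and its 2 other tested probes differed by -0.27 and -0.23. SPARC, a collagen-binding protein also called osteonectin, differed by -0.35 (limma, adjusted p = 0.242). FN1, fibronectin, POSTN, periostin, and THBS1, thrombospondin-1, were detected on 0 arrays, and FBN1, fibrillin-1, on treated replicate 2 alone.

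Of 11 laminins and basement membrane partners, 8 were tested, 1 fell and 0 rose. The 1 that fell passed the filter through the control arrays alone. LAMB3, the beta chain of epidermal laminin-332, read 8.57, 8.10 and 8.55 in controls and 7.07, 7.06 and 7.59 with treatment, none detected. The fitted difference was -1.16 (limma, adjusted p = 0.00746). As a bound, LAMB3 was at least 1.78-fold lower, or at least 1.37-fold with the background left in, and its 2 other probes were detected on 0 arrays. The remaining 7 did not pass the threshold, with differences of -0.26 to 0.07, and 0 had an unadjusted p under 0.05. LAMA5, an alpha chain of kidney basement membrane, read 14.63, 14.60 and 14.26 in controls and 14.47, 14.10 and 14.15 with treatment (difference -0.26, 95% interval -0.59 to 0.07). LAMC1, the gamma chain that most laminins share, differed by -0.14 (95% interval -0.44 to 0.17). LAMA1, an embryonic alpha chain, differed by 0.07 and LAMB1 by 0.06, with intervals of -0.20 to 0.34 and -0.22 to 0.34. The direction of LAMB1 depends on the probe, since its other tested probe differed by -0.17. The intervals of these 4 genes leave out a change as large as that of COL5A1. LAMB2, NID1 (nidogen-1) and AGRN (agrin) differed by -0.03 to -0.20. HSPG2, perlecan, was detected on 0 arrays, and LAMA4 and NID2 on 1 control array each.

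**Figure D3:**
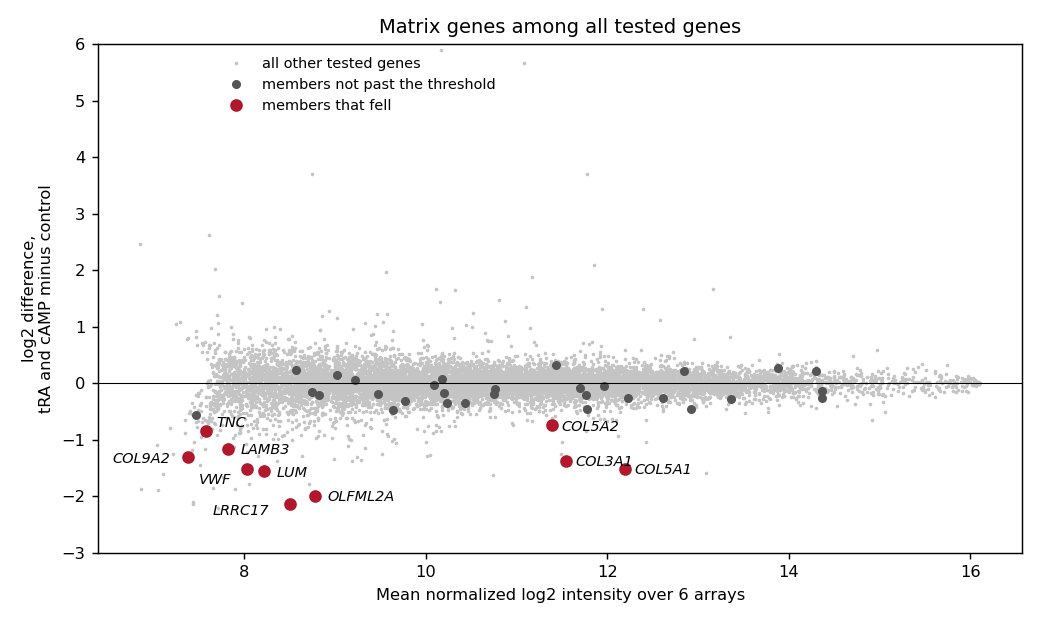
Difference (y axis, log2, tRA and cAMP minus control) against mean normalized log2 intensity over 6 arrays (x axis) for every tested gene. Grey dots are the other tested genes, dark dots the 30 matrix genes not past the threshold and red dots the 10 that fell; COL5A1, COL3A1 and COL5A2 lie among well-detected genes and the other 7 at mean levels under 9.

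None of the 8 tested enzymes and chaperones of collagen maturation was called by limma, and 1 had an unadjusted p under 0.05. Their differences were split, with 4 below and 4 above 0, from -0.32 to 0.33. P4HA2, a catalytic subunit of prolyl hydroxylase, read 11.38, 11.19 and 11.24 in controls and 11.50, 11.43 and 11.87 with treatment (difference 0.33, standard error 0.14; limma, adjusted p = 0.331). All treated arrays lay above the controls, and its 2 other tested probes also differed upwards, by 0.22 and 0.25. P4HA1, the alternative subunit, differed by -0.17 (limma, adjusted p = 0.619). Another P4HA1 probe, detected on 2 control arrays alone and not tested, differed by -0.76. The lysyl hydroxylase PLOD2 read 13.55, 13.76 and 13.95 in controls and 14.05, 14.14 and 13.85 with treatment (difference 0.26; limma, adjusted p = 0.448), PLOD1 differed by 0.22 and PLOD3 by -0.05. SERPINH1, the collagen chaperone HSP47, differed by -0.26 without overlap (limma, adjusted p = 0.361). The cross-linking oxidases LOX and LOXL1 differed by 0.24 and -0.32 (limma, adjusted p = 0.547 and 0.44), and LOXL2 was detected on 0 arrays.

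Of the matrix proteases and their inhibitors only the 3 TIMP genes were tested, 0 were called by limma and 0 had an unadjusted p under 0.05. TIMP1 read 14.40, 14.18 and 14.02 in controls and 14.25, 14.58 and 14.40 with treatment (difference 0.21, 95% interval -0.11 to 0.53). TIMP2 differed by -0.25 (95% interval -0.60 to 0.09), and its other probe, detected on all arrays, by -0.69 (limma at probe level, adjusted p = 0.182). TIMP3 differed by -0.20. The gelatinase MMP2 and the membrane protease MMP14, both of which cut collagen, were detected on 0 arrays.

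Chains of 1 molecule and close relatives were compared in pairs as the difference between their log2 differences. Of 17 pairs listed, 9 had both genes tested, and 3 arrays against 3 cannot give an exact p under 0.1. The groups lay apart in 2 pairs, each at that smallest value. COL5A1 was lower relative to COL5A2 by a further -0.77 (standard error 0.27; exact permutation test, 2-sided, p = 0.1, adjusted over the 9 pairs 0.45). P4HA1 differed from P4HA2 by -0.50 (standard error 0.24; exact permutation test, p = 0.1, adjusted 0.45). COL4A5 and COL4A6 differed from each other by 0.03 (standard error 0.20; exact permutation test, p = 0.9), and COL4A1 and COL4A2 by 0.11 (standard error 0.18; exact permutation test, p = 0.6). The other 5 pairs had exact permutation p-values of 0.2 to 1.

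**Figure D4:**
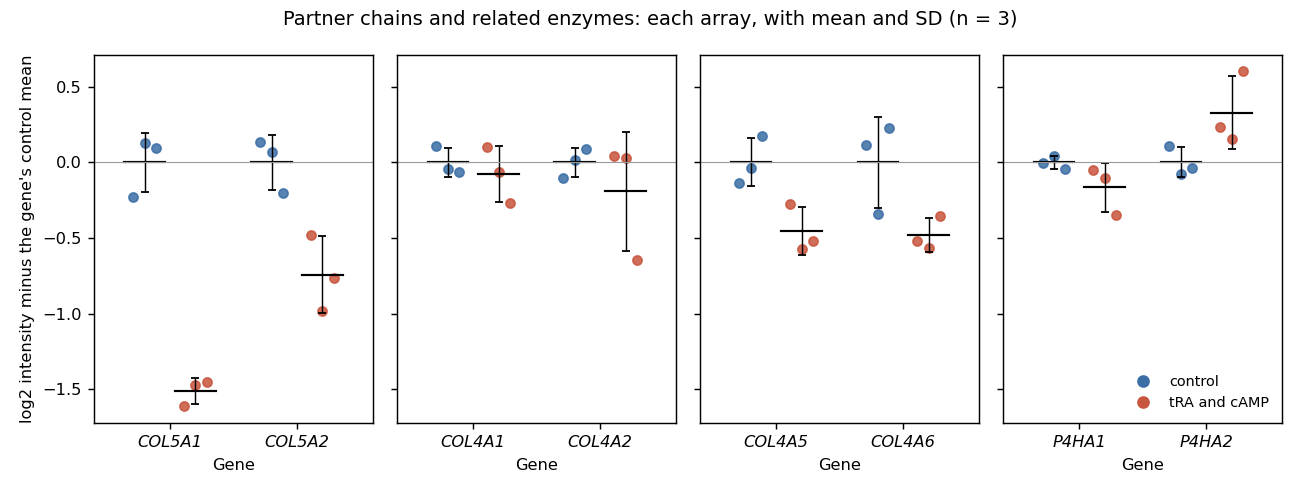
Each array's log2 intensity minus the gene's own control mean (y axis) for 4 pairs of partner genes (x axis); points are arrays, black bars the mean and SD of 3 arrays, blue control and red tRA and cAMP. Both COL5 chains lie below 0 with treatment, COL5A1 further than COL5A2, the COL4A5 and COL4A6 means sit at -0.45 and -0.48, and P4HA1 and P4HA2 lie on opposite sides of 0.

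Outside the 59 genes, 121 other matrix genes were listed, of which 43 were tested. Of these 3 fell and 1 rose, where 1.45% of all tested genes fell and 1.09% rose, and their median difference was -0.08. Among the 22 other glycoproteins and proteoglycans tested, 8 were lower and 2 higher at an unadjusted p under 0.05 (limma), against 7.36% and 6.87% of all tested genes. EMILIN2 and OLFML3, among the 8, passed the filter through the control arrays alone. EGFLAM, pikachurin, which has laminin and fibronectin domains, fell 1.98-fold from 10.14 ± 0.05 to 9.16 ± 0.07 (SD, n = 3; limma, adjusted p = 0.00095). LAMC3, a laminin gamma chain, fell 1.81-fold (limma, adjusted p = 0.007) and EFEMP1, fibulin-3, fell 1.68-fold (limma, adjusted p = 0.0106). The EFEMP1 call was lost without control replicate 2 (0.0505) or treated replicate 2 (0.0528). SMOC1, a SPARC-related protein of basement membranes, rose 1.64-fold (limma, adjusted p = 0.0222). Its call was lost without normalization (0.318), with median scaling (0.0514), with no filter (0.0844), with the replicate number as a block (0.0534) and when replicate 1 or 2 of either group was left out (0.0654 to 0.0905). Of the 13 other processing enzymes tested 0 were called by limma, and 2 were lower and 2 higher at an unadjusted p under 0.05; of 3 other collagens and 5 other proteases and inhibitors 0 were called, with 0 and 1 at that p. TGF-beta signalling is known to drive collagen transcription. Of 10 tested genes of this pathway, 1 was lower and 3 higher at an unadjusted p under 0.05 (limma). These shares were 7.36% and 6.87% over all tested genes. SMAD7 was lower (difference -0.53), and SMAD2 (0.62) and SMAD3 (0.40) were among the higher. The part of these genes in the collagen values was not tested. Past the adjusted threshold, 0 of the 10 fell and 1 rose. That was SKIL, an inhibitor of SMAD proteins, not detected in controls, which passed the filter through the treated arrays alone. The filter picks such a gene for being brighter with treatment, so this count is a description. The fitted difference of SKIL was 0.81 (limma, adjusted p = 0.0197), and as a bound it was at least 1.30-fold higher. The SKIL call was lost with the background left in (adjusted p = 0.0919), in the deposited table, without normalization, with no filter, with the robust fit, and when any 1 array other than control replicate 3 was left out.

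Markers of cell types that carry matrix were read beside these genes. Of 9 fibroblast and mesenchymal markers that are not among the 59 genes, 5 were tested. S100A4 fell 3.07-fold (limma, adjusted p = 7.5e-05). TAGLN, not detected with treatment, passed the filter through the control arrays alone. The fitted difference of TAGLN was -1.16 (limma, adjusted p = 0.00134), and as a bound it was at least 1.48-fold lower. PDGFRA and TWIST1 did not pass the threshold, nor did ACTA2, which was lower at an unadjusted p of 0.0233 (limma, adjusted 0.243). The summed normalized intensity of the 5, to which ACTA2 contributed most, was 23331 to 28368 on control and 18107 to 20000 on treated arrays, and the fibroblast surface markers PDGFRB, THY1 and FAP were detected on 0 arrays. Of 7 endothelial markers other than VWF, 6 were detected on 0 arrays, among them CDH5 and KDR. PECAM1 was detected on 3 arrays, and 0 of the 7 were tested. Of the cartilage markers SOX9 and MATN3 were detected on all arrays and were not called (limma, 0 at an unadjusted p under 0.05), and ACAN, COMP and COL10A1 were detected on 0. Of 3 tested epithelial and 2 tested blood cell markers 0 were called by limma, with 1 and 0 at an unadjusted p under 0.05; EPCAM, CDH1 and PTPRC were detected on 0 arrays. The part of the fibroblast markers' shift in the collagen and LUM values was not tested.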

How the data were processed

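Total RNA of 6 HEK293 samples, 3 control and 3 treated, was labelled as biotinylated cRNA and hybridized to Illumina bead arrays, as the labels' protocols say. Sample titles gave the groups and replicate numbers. The authors deposited, per the file headers, a linear intensity for each probe and array, the mean over its beads, without normalization. The submitters' processing notes name BeadStudio, with no version in the sources used here. A detection p-value per probe and array was deposited with them, per the file headers; its steps fit 759 negative controls. A second deposited intensity table, read from its values as quantile normalized, served as an alternative only.

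Signals were corrected with normexp (offset 16, with the negative controls' mean and spread taken from the detection p-values), quantile normalized and taken to log2 (nec and normalizeBetweenArrays of limma 3.58.1, R 4.3.3). Gene names came from the platform annotation, updated through RefSeq gene numbers: 28098 probes had 1 name, 13 several and 20692 none listed. The filter asked for a detection p under 0.01 throughout at least 1 group of 3 arrays (14923 probes, 12887 named, 9944 genes). Groups were compared with lmFit and eBayes over the 6 arrays, adjusted by Benjamini-Hochberg over all genes tested, with a threshold of 0.05. The fit was tested on simulated data. Called members are given with all arrays. Of the others, those with the largest positive and negative difference and the highest level in each role are named, with further members where a sentence needs them. Members, lists and rules were chosen with earlier results of these data known. Promoters are from RefSeq, and matplotlib 3.10.9 (Python 3.11.15) drew the plots. Alternatives covered background, normalization, filter, probe choice, variance model, a replicate block, the deposited normalized table and leaving out each array.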

Additional observations from a re-analysis of the deposited data

How the results depend on the processing

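The count of 10 members that fell stayed between 9 and 11 under every alternative but 1, with at least 9 of the same genes each time. The exception was detection on all 6 arrays, where 33 members were tested and 4 fell. The count of members that rose was 0 throughout. Leaving out single arrays gave 9 to 11 members lower and 0 higher. Over all genes, 86 to 114 were then lower and 52 to 83 higher, against 144 and 108, in fits with fewer arrays. All genes lower numbered 77 with no filter and 89 with detection on all 6 arrays, and all genes higher 53 with no filter and 43 without normalization, where the median of all genes moved by -0.10 and that of the members was -0.34.

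Of the 40 tested members, 10 changed sign under an alternative, 0 of them among those that fell. COL6A2 was -0.050 with the mean of its probes and -0.24 with its dimmer probe. LAMB1 was -0.054 and -0.17 under these and -0.064 without normalization, where LAMA1 was -0.045. Without single arrays COL6A2 ranged from -0.088 to 0.26, LAMB1 from -0.034 to 0.12, LAMA1 from -0.0076 to 0.12, COL1A1 from -0.31 to 0.0043 and COL4A1 from -0.17 to 0.019. The ranges were -0.31 to 0.036 for COL4A2, -0.28 to 0.058 for COL6A1, -0.073 to 0.061 for LAMB2, -0.32 to 0.0053 for AGRN and -0.14 to 0.0065 for PLOD3. The cause was not tested.

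The replicate number as a block left 10 members lower and 0 higher (83 of all genes higher), with COL5A2 at an adjusted p of 0.0494. It changed no member's call. Same-numbered arrays of the groups did not deviate together (correlations 0.056, -0.047 and -0.037), and 2 of 6 arrays correlated best with their own number. The dim members, whose signal lay near background, depend most on the background correction, as the folds beside them show.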
